A study of Mus musculus with 4 samples.

Results

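Collagen chains were examined in cells that had been differentiated from mouse embryonic stem (ES) cells and sorted with an antibody to kidney specific protein (KSP), a cadherin of renal tubular cells encoded by Cdh16. Members were all genes whose symbol is Col, a number, the letter a and a number, read from array probe sets assigned to 1 gene. The array held 82 such probe sets of 42 collagen genes, among 45037 probe sets and 18193 genes in all. The symbol alone chose the members, with no measured value, although the rule was set with earlier results of these data known.

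The study asked whether cells of the renal lineage can be purified from differentiated ES cells. Cells of the EB3 line, which were of the 129/Ola strain and carried GFP under the CAG promoter, had been differentiated with Activin at 10 ng/mL for 18 days through embryoid bodies, and were then dissociated and sorted. Both fractions came from such cultures and had therefore received Activin. KSP-positive and KSP-negative cells were each profiled on 2 Affymetrix mouse genome arrays, and the series was described as 2 independent experiments. All cells derive from a single line, and no undifferentiated or untreated culture is among these arrays. With 2 arrays per fraction, the number of arrays limited the precision of every comparison, and the labels do not state which arrays came from the same experiment.

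Collagens are secreted or membrane-bound proteins whose chains wind around each other into a rope-like helix. Fibrillar collagens (I, II, III, V, XI, XXIV and XXVII) build the fibrils of connective tissue, collagen IV builds the sheet of basement membranes under epithelia, and collagen VI forms beaded microfibrils that link the cell to its matrix. Mesenchymal cells such as fibroblasts are the main source of fibrillar collagens, whereas basement membrane chains are made by epithelial, endothelial and mesenchymal cells, and in the kidney the collagen IV network underlies both tubules and glomeruli. In bulk RNA from sorted fractions, more cells of one type and more RNA per cell cannot be told apart.

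Values are log2 of the array signal after scaling and after raising the weakest values to a floor of 3.62. The KSP-positive minus KSP-negative difference of mean log2 signal was tested with limma, p-values were adjusted over the 12849 genes bright enough to test, and "called" means an adjusted p under 0.05. Levels of one gene are compared between arrays only, since probe sets differ in brightness for the same amount of RNA. For beta-actin, the signal of the 3' end over that of the 5' end, a gauge of RNA and labelling quality, was 2.92 and 1.80 in KSP-positive replicates 1 and 2 and 1.79 and 3.55 in KSP-negative replicates 1 and 2. For Gapdh it was 3.11 and 1.86 in the KSP-positive and 2.02 and 2.72 in the KSP-negative arrays. KSP-negative replicate 2 was thus the highest by actin and KSP-positive replicate 1 by Gapdh. Cdh16, the gene of the sorted protein, had log2 signals of 5.66 and 5.03 in the KSP-positive and 5.30 and 4.71 in the KSP-negative arrays. These overlapped between the fractions, and the difference of 0.34 was not called (adjusted p = 0.816). The probe set was dim. Its KSP-negative mean lay under the filter level of 5.14, which the mean over all arrays had to exceed for a gene to be tested. So close to the cutoff, the result cannot show whether or not the sort enriched the Cdh16 transcript.

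Collagen genes stood mostly higher in the KSP-positive fraction. Of the 42 genes, 35 were bright enough to test, 6 were called higher, 0 were called lower, and 29 were not called. Of all 12849 genes tested, 1.84% were called higher and 1.65% lower. The 6 genes were Col1a1 of collagen I, Col6a1, Col6a2 and Col6a3 of collagen VI, Col4a5 of collagen IV, and Col14a1, a fibril-associated chain. At an unadjusted p under 0.05, 15 collagen genes were higher (9.05% of all genes) and 0 lower (8.72% of all genes). Without KSP-negative replicate 2, 4 collagens were called (Col1a1, Col6a1, Col6a2 and Col6a3), and without KSP-negative replicate 1, 11 were. With no filter on dim probe sets, which raised the number of genes tested to 18193, 0 collagens and 0 genes in all were called by limma, as was so with the methods' t-test after adjustment. Differences of more than 2-fold were seen upward in 13 collagen genes and downward in 0, and the shares past 2-fold over all genes were 7.92% upward and 7.66% downward.

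The mean was higher in the KSP-positive arrays for 32 of the 35 tested collagens, against 48.4% of all genes, and the exceptions were Col2a1, Col7a1 and Col11a2. The differences ran from -0.67 to 2.46 with a median of 0.83, and the median over all genes was -0.03. Both KSP-positive arrays lay above both KSP-negative arrays for 24 collagens, which compares with 24.4% of all genes, and below both for 2, Col2a1 and Col7a1, which compares with 24.6%. The remaining 9 overlapped. The lowest array was KSP-negative replicate 2 for 23 of the 35 tested collagens and for 21.5% of all genes. KSP-positive replicate 1 was the lowest for 1 collagen (31% of all genes) and KSP-positive replicate 2 for 3 (19.6%). KSP-negative replicate 1 was the lowest for 8 collagens (27.9% of all genes). The part of RNA quality in the differences was not tested.

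**Figure D1:**
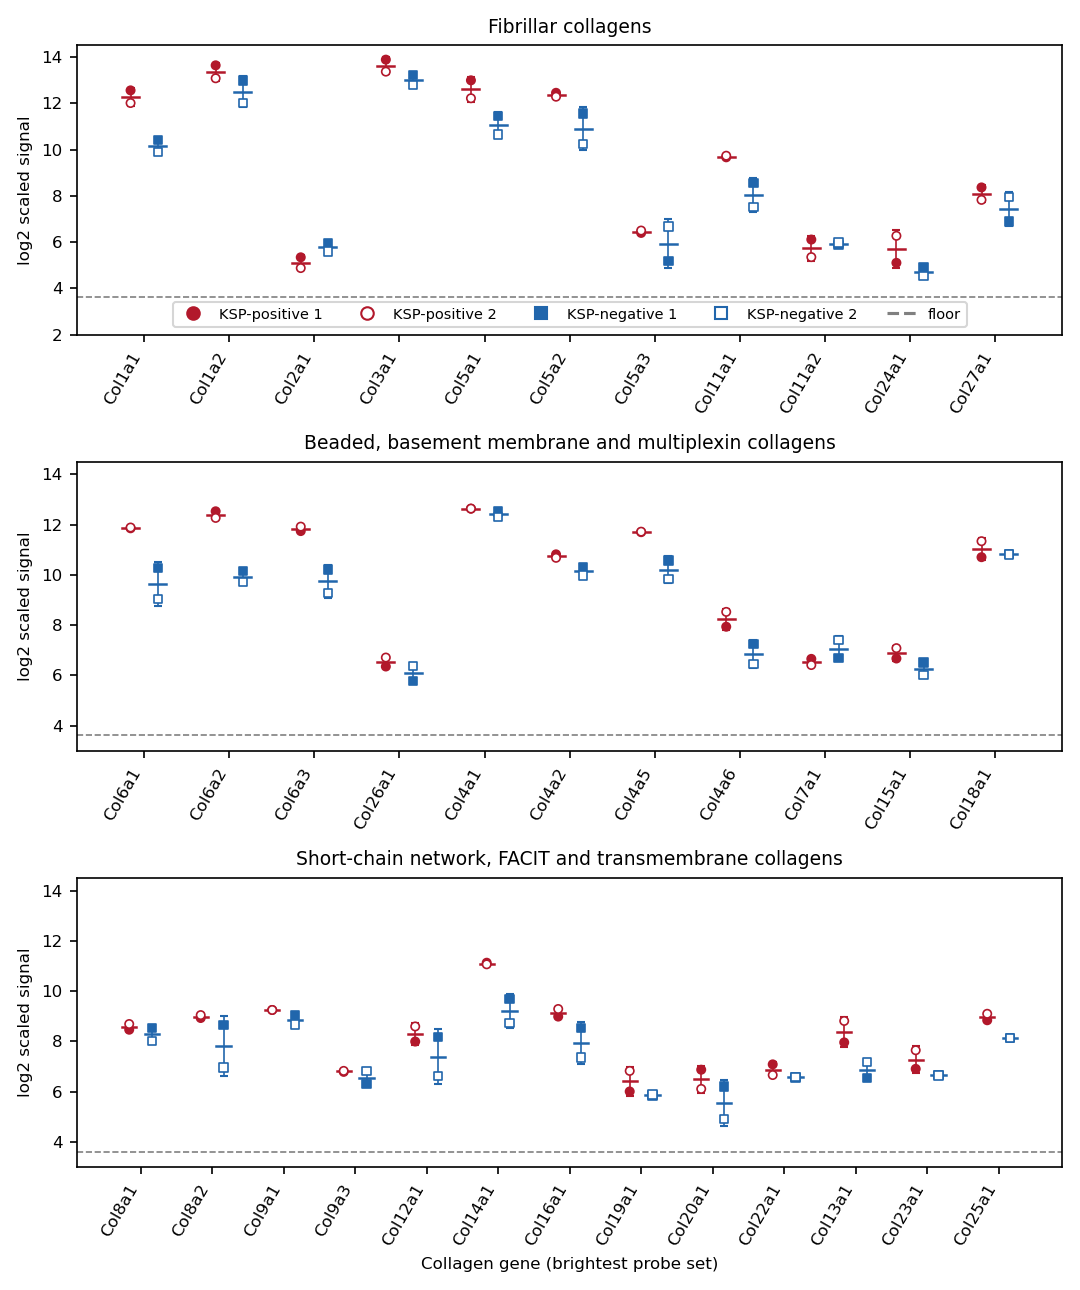
The plot gives the log2 scaled signal (vertical axis) of the brightest probe set of each of the 35 tested collagen genes (horizontal axis), KSP-positive arrays being circles and KSP-negative arrays squares, filled for replicate 1 and open for replicate 2, with bars for mean ± SD (n = 2) and the floor of 3.62 dashed. Circles lie above squares for most genes, with the widest gaps at Col1a1, Col6a1, Col6a2, Col6a3 and Col14a1.

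**Figure D2:**
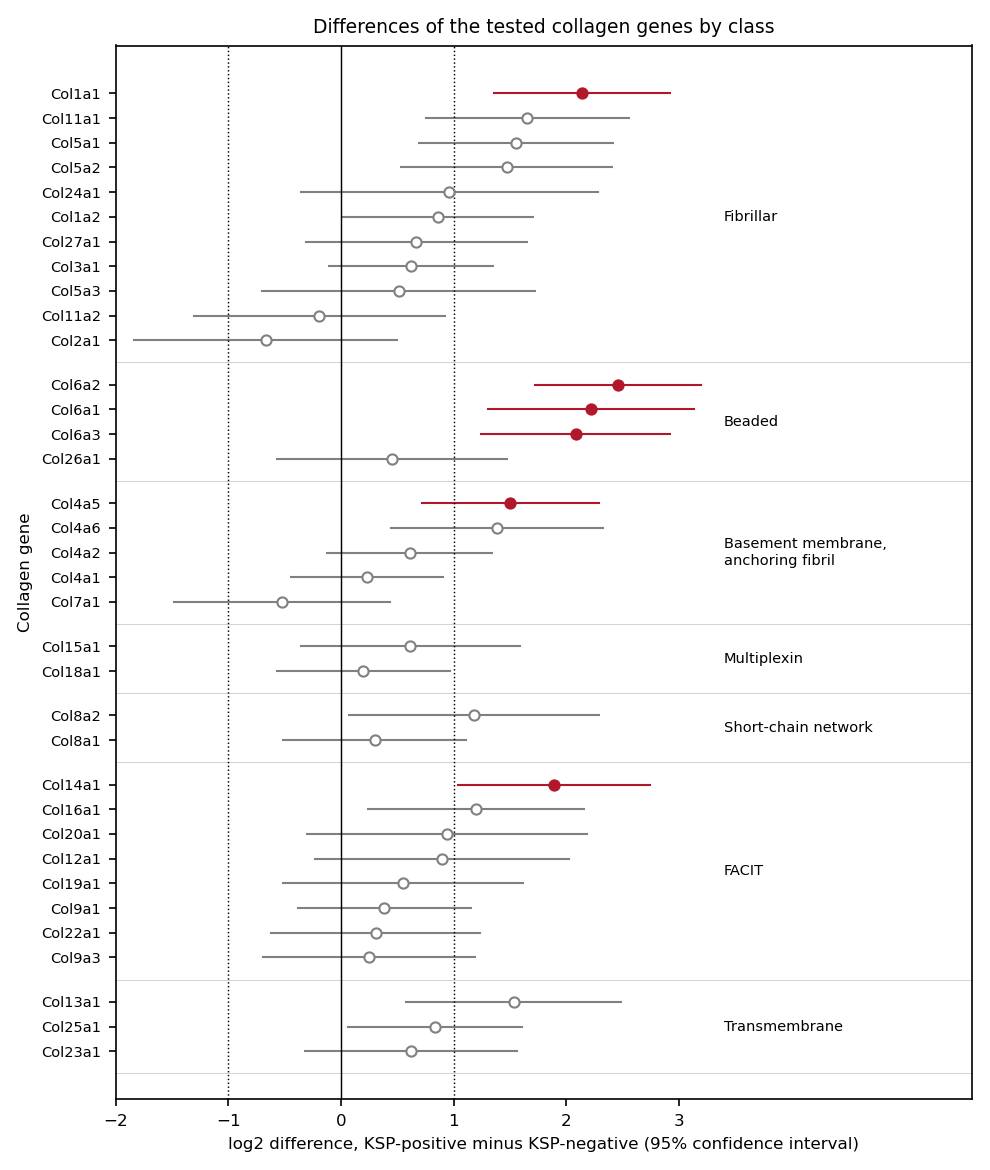
The plot gives the log2 difference, KSP-positive minus KSP-negative (horizontal axis), of each tested collagen gene (vertical axis, by class) with its 95% confidence interval from limma, filled red where the adjusted p was under 0.05, and dotted lines at 2-fold. The 6 filled genes lie between 1.50 and 2.46, and all the genes left of 0 have intervals that cross 0.

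All 3 main chains of collagen VI were called higher. Its chains form one heterotrimer, the unit of the microfibrils. Col6a1 had log2 signals of 11.85 and 11.88 in the KSP-positive arrays and 10.26 and 9.04 in the KSP-negative arrays. Col6a2 had 12.53 and 12.27 against 10.15 and 9.73, and Col6a3 had 11.74 and 11.92 against 10.21 and 9.28. These chains were thus high in both KSP-positive arrays, with no overlap, and lowest in KSP-negative replicate 2. Col6a2 rose by 2.46 ± 0.33 (SE, n = 2 per fraction), a 5.51-fold difference with an adjusted p of 0.00534 in limma. Col6a1 rose by 2.22 ± 0.42 (4.65-fold, limma adjusted p = 0.0177) and Col6a3 by 2.09 ± 0.38 (4.24-fold, limma adjusted p = 0.0160). The 95% confidence intervals were 1.73 to 3.20, 1.30 to 3.14 and 1.25 to 2.92 for Col6a2, Col6a1 and Col6a3, and they overlap, so no order among the chains is drawn. The other beaded-filament member tested, Col26a1, differed by 0.45 and was not called (limma adjusted p = 0.674). The chains Col6a4 and Col6a5, which can take the place of Col6a3 in the heterotrimer, were too dim to test.

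The promoters of the collagen VI chains are shown because these genes moved together. Each upstream stretch ends just before the annotated gene span and reads 5′ to 3′ on the gene's strand, with the sequence from RefSeq (GRCm38.p6). Bases inside the span were cut off, so the Col6a3 stretch has 220 bases, and those of Col6a1 and Col6a2 have 250. Capitals mark matches on either strand to CCAAT, the box bound by NF-Y, to TATAAA, the TATA box, or to GGGCGG, the GC box bound by Sp1-type factors. None of these motifs holds another. The windows lie at chr10:76726045-76726294 on the minus strand for Col6a1, at chr10:76623631-76623880 on the minus strand for Col6a2, and at chr1:90844002-90844221 on the minus strand for Col6a3.
Col6a1: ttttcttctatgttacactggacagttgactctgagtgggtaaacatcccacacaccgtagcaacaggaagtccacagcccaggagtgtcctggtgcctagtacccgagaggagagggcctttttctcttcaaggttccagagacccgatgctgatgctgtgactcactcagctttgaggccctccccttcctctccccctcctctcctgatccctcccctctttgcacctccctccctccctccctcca
Col6a2: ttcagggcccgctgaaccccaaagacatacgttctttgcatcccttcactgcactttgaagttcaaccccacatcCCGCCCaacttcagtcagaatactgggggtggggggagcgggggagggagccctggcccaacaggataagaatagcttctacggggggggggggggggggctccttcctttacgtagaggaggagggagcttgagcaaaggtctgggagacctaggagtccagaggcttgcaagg
Col6a3: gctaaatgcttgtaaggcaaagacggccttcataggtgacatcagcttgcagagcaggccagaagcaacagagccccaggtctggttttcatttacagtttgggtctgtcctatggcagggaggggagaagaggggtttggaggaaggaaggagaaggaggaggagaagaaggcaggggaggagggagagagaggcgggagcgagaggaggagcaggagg
Of the stretches shown, only that of Col6a2 holds one of the motifs, a single GC box read as its complement. Col6a1 and Col6a2 are neighbours on the same strand of chromosome 10, while Col6a3 lies on chromosome 1. Of the 42 collagen genes, 33 have a window in the RefSeq table, and in the 250 bases before the start CCAAT occurs in 39.4% of them, TATAAA in 15.2% and GGGCGG in 60.6%. Over all 27025 genes with a window, whether or not the array measures them, the shares are 37.5%, 14.3% and 35.4%. Among collagens more than 2-fold higher with a window, 7 of 10 hold GGGCGG, as do 10 of the 17 other tested collagens with a window. These matches describe the letters only and are no evidence of binding.

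Among the fibrillar collagens, 1 of 11 tested genes was called and 4 were more than 2-fold higher, with a median difference of 0.86. Col1a1, the main chain of collagen I, had log2 signals of 12.56 and 12.01 in the KSP-positive arrays and 10.40 and 9.90 in the KSP-negative arrays, which did not overlap. Its mean rose from 10.15 ± 0.36 to 12.29 ± 0.39 (SD, n = 2 per fraction), a difference of 2.14 (SE 0.35, 4.40-fold, limma adjusted p = 0.0111). Col1a2, its partner in the collagen I trimer, had 13.64 and 13.08 against 12.99 and 12.02. These arrays did not overlap either, although the highest KSP-negative array lay just under the lowest KSP-positive one, and the difference of 0.86 (95% confidence interval 0.01 to 1.71) was not called (limma adjusted p = 0.274). It was 0.37 without KSP-negative replicate 2 and 1.34 without KSP-negative replicate 1. Col3a1, the chain of collagen III, which is laid down with collagen I in soft tissues, had 13.89 and 13.37 against 13.23 and 12.78, a difference of 0.62 (interval -0.10 to 1.35) that was not called (limma adjusted p = 0.356).

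Collagens V and XI regulate the diameter of collagen I and II fibrils, and 3 of their 5 chains, Col5a1, Col5a2 and Col11a1, were more than 2-fold higher without being called. Col5a1 had 12.99 and 12.22 in the KSP-positive and 11.45 and 10.66 in the KSP-negative arrays (difference 1.55, limma adjusted p = 0.0580). Col5a2 had 12.46 and 12.29 against 11.56 and 10.24 (difference 1.47, limma adjusted p = 0.0921), and Col11a1 had 9.67 and 9.74 against 8.57 and 7.53 (difference 1.65, limma adjusted p = 0.0538). None of these 3 chains overlapped between the fractions, and each was lowest in KSP-negative replicate 2. Without that array, the Col5a2 difference was 0.81. The remaining fibrillar chains, Col2a1, Col5a3, Col11a2, Col24a1 and Col27a1, differed by -0.67 to 0.96 and were not called. Col2a1, the cartilage collagen, had 5.34 and 4.88 against 5.97 and 5.59, so it was lower in both KSP-positive arrays, and its difference of -0.67 had an interval of -1.83 to 0.50. The KSP-positive mean of Col2a1 (5.11) and the KSP-negative mean of Col24a1 (4.73) lay under the filter level of 5.14. Each was tested only through its brighter fraction.

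For some fibrillar chains the difference depended on the probe set read. The values above come from the brightest probe set of each gene, and these are close to the top of the array for Col1a2 and Col3a1, at the 99.5th and 99.9th percentile of mean signal. The other kept probe set of Col3a1, at the 98.2nd percentile, had 13.12 and 12.82 in the KSP-positive and 11.59 and 10.71 in the KSP-negative arrays, a difference of 1.82 against 0.62 for the brightest. When each probe set was tested as its own feature, over 22618 kept single-gene probe sets, that of 1.82 was called (limma adjusted p = 0.0490) and that of 0.62 was not (0.409). For Col1a2 the other 2 kept probe sets differed by 1.87 (13.23 and 12.80 against 11.82 and 10.47) and by 2.11 (6.91 and 6.90 against 4.86 and 4.73), with limma adjusted p-values of 0.0804 and 0.0632. Both lay above the 0.86 of the brightest, and all 3 placed both KSP-positive arrays above both KSP-negative ones. The second probe set of Col1a1 gave 2.86, or 7.25-fold, from 11.19 and 10.96 against 8.74 and 7.69. The part of this very high signal in the gap between probe sets was not tested.

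Probe sets were otherwise similar in direction. Of the 56 kept collagen probe sets, 40 had both KSP-positive arrays above both KSP-negative arrays (22.2% of all kept single-gene probe sets). In 3 they lay below, a direction whose share was counted over genes only, at 24.6%. More than 2-fold higher were 25 (7.33% of all kept single-gene probe sets). In the test of single probe sets 6 were called higher, against 0.76% of all, and 0 were called lower (0.681% of all). These 6 were both probe sets of Col1a1, that of Col3a1 given above, and 1 each of Col6a1, Col6a2 and Col6a3. Of the 13 genes more than 2-fold higher, 8 had several kept probe sets, and in all 8 every kept probe set was more than 2-fold higher. Over the 18 genes with several kept probe sets, the brightest gave the smallest difference in 8 and the largest in 10. Col9a3, a chain of the fibril-associated collagen IX, was the 1 gene with opposite signs, at 0.25 and -0.95.

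**Figure D3:**
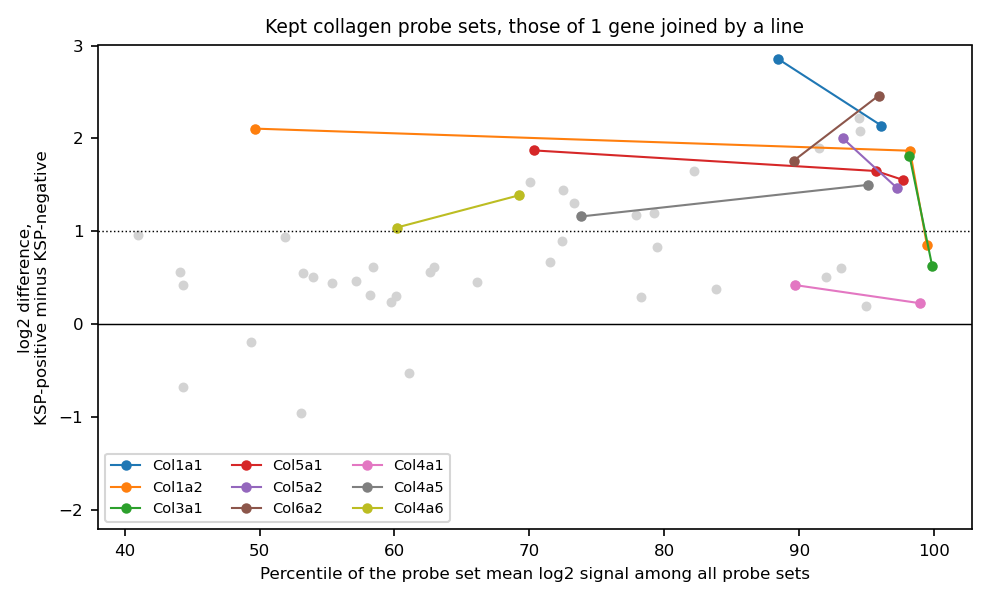
The plot sets the log2 difference of each of the 56 kept collagen probe sets (vertical axis) against the percentile of its mean log2 signal among all probe sets (horizontal axis), in colour and joined by a line for the 9 genes in the key, grey for the others, with a dotted line at 2-fold. The lines of Col1a2 and Col3a1 drop at the right edge, where their brightest probe sets gave 0.86 and 0.62.

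Of the 5 tested basement membrane chains, Col4a5 was called, Col4a6 was more than 2-fold higher without being called, and Col4a1, Col4a2 and Col7a1 were within 2-fold. Collagen IV chains lie as head-to-head neighbours, Col4a1 with Col4a2 and Col4a5 with Col4a6, and the widespread network of basement membranes is built from the first pair. Col4a1 had log2 signals of 12.63 and 12.64 in the KSP-positive arrays and 12.51 and 12.30 in the KSP-negative arrays. Col4a2 had 10.82 and 10.68 against 10.30 and 9.97. Both genes were higher in both KSP-positive arrays by small amounts, 0.23 for Col4a1 (interval -0.45 to 0.91, limma adjusted p = 0.758) and 0.61 for Col4a2 (interval -0.12 to 1.34, limma adjusted p = 0.373), and neither was called. Col4a5, a chain of the mature glomerular and tubular basement membrane, had 11.70 and 11.72 against 10.58 and 9.84. It rose by 1.50 ± 0.36 (SE, n = 2 per fraction), or 2.83-fold (interval 0.72 to 2.29, limma adjusted p = 0.0469). This call lay at the threshold and was lost without KSP-negative replicate 2 (difference 1.13, adjusted p = 0.178), without KSP-positive replicate 1 (1.51, 0.0755) or 2 (1.49, 0.0584), with probe sets averaged (1.33, 0.112), with no intensity trend (0.0963) and with probe sets tested singly (0.0807). Its neighbour Col4a6, which pairs with it in smooth muscle and some epithelial basement membranes, had 7.94 and 8.53 against 7.24 and 6.45, a 2.62-fold difference that was not called (limma adjusted p = 0.110). The difference between the gene pairs was not tested, and their intervals overlap.

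The upstream windows of Col4a5 and Col4a6 are shown because these genes are read away from each other with 1274 bases between their annotated spans, and both were more than 2-fold higher. They lie at chrX:141475169-141475369 on the plus strand for Col4a5 and at chrX:141474096-141474326 on the minus strand for Col4a6 (GRCm38.p6), with capitals as above.
Col4a5: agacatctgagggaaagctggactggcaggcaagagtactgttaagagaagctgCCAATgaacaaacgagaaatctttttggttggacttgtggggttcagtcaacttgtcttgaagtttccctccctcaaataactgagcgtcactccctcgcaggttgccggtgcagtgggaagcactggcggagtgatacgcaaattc
Col4a6: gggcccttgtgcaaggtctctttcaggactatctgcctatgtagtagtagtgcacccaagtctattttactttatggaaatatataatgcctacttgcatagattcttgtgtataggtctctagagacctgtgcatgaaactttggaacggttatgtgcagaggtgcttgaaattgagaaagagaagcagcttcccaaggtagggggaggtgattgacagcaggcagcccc
These stretches, cut in the same way, have 201 and 231 bases. The Col4a5 stretch holds 1 CCAAT box and the Col4a6 stretch none of the motifs, and they do not overlap. The annotated spans of Col4a1 and Col4a2 overlap by 85 bases, so that the window of each lies within the other gene, and they are not printed.

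The other collagens found in or at basement membranes were not called. Col7a1, which forms the anchoring fibrils below skin epithelium, had 6.66 and 6.42 in the KSP-positive and 6.71 and 7.41 in the KSP-negative arrays, a difference of -0.52 (interval -1.48 to 0.44, limma adjusted p = 0.588). Col18a1, the multiplexin whose end fragment is endostatin and which is found in most basement membranes, had 10.70 and 11.34 against 10.83 and 10.81. Its arrays overlapped, the difference was 0.20 (interval -0.57 to 0.96, limma adjusted p = 0.823), and its other kept probe set differed by 0.51. Col15a1, the other multiplexin, differed by 0.61 and was not called (limma adjusted p = 0.514).

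Among the fibril-associated collagens with interrupted helices, which coat fibrils without forming them, 1 of 8 tested genes was called and 2 were more than 2-fold higher. Col14a1, which binds collagen I fibrils, had 11.13 and 11.07 in the KSP-positive arrays and 9.68 and 8.73 in the KSP-negative arrays, with no overlap. It rose by 1.89 ± 0.39 (SE, n = 2 per fraction, 3.71-fold, limma adjusted p = 0.0257), and without KSP-negative replicate 2 the difference was 1.42 and the call was lost (adjusted p = 0.0792), as it was with no intensity trend (0.0566) and with probe sets tested singly (0.0518). Col16a1 had 8.99 and 9.29 against 8.52 and 7.36, a 2.30-fold difference with an adjusted p of 0.170 in limma, which came to 0.62 on the log2 scale without KSP-negative replicate 2. Col9a1, Col9a3, Col12a1, Col19a1, Col20a1 and Col22a1 differed by 0.25 to 0.94 and were not called.

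None of the transmembrane or network-forming collagens was called. The transmembrane Col13a1, found at cell junctions, had 7.96 and 8.81 in the KSP-positive and 6.54 and 7.17 in the KSP-negative arrays, which did not overlap (2.89-fold, limma adjusted p = 0.0872). Col23a1 and Col25a1, which also span the membrane, differed by 0.62 and 0.83. Col8a2, a short chain of the lattice under endothelium and in the cornea, had 8.93 and 9.05 against 8.65 and 6.97 (2.27-fold, limma adjusted p = 0.247), so that KSP-negative replicate 2 alone stood apart, and without that array the difference was 0.34. Its partner Col8a1 differed by 0.30 with overlapping arrays.

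The remaining 7 collagen genes were too dim to test, with a mean under a log2 signal of 5.14. Col10a1, the collagen of hypertrophic cartilage, was at the floor on all 4 arrays. Col4a3 had 4.19 and 3.71 in the KSP-positive arrays against 3.62 and 4.29, and Col4a4 had 5.83 and 4.33 against 3.62 and 4.71. These chains, partners of Col4a5 in the glomerular basement membrane, overlapped between the fractions at this level. Col17a1, the transmembrane collagen of hemidesmosomes in stratified epithelium, had 3.62 and 3.64 against 4.21 and 6.98, so 1 KSP-negative array set it apart. Col6a4, Col6a5 and Col9a2 overlapped between the fractions, with array values from 3.62 to 5.76. A probe set at the floor bounds the signal from above and does not show that the gene was silent.

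The genes that fold, cut, link and bind collagen were read from 4 lists taken from textbook knowledge. The lists were drawn up with earlier results of these data known, so their counts are description and no independent support. For comparison, 1.84% of all genes tested were called higher and 1.65% lower, and their median difference was -0.03. In the folding list, which holds the hydroxylases and chaperones of the endoplasmic reticulum, 22 of 24 genes on the array were tested, 2 were called higher and 0 lower, and the median difference was 0.83. P4ha2, a prolyl hydroxylase subunit that stabilizes the helix, had 11.34 and 11.23 in the KSP-positive and 10.15 and 8.90 in the KSP-negative arrays (3.39-fold, limma adjusted p = 0.0485). P3h3, a prolyl 3-hydroxylase family member, had 8.56 and 8.78 against 6.86 and 6.83 (3.55-fold, limma adjusted p = 0.0233). Serpinh1, the collagen chaperone HSP47, differed by 0.27 and P4hb, the protein disulfide isomerase shared with other secreted proteins, by -0.21, and neither was called.

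In the list of cleavage and crosslinking enzymes, 9 of 12 genes on the array were tested, 2 were called higher and 1 lower, with a median of 0.80. Pcolce, an enhancer of the protease that trims the end of procollagen, had 12.82 and 12.30 in the KSP-positive and 10.66 and 10.31 in the KSP-negative arrays (4.22-fold higher, limma adjusted p = 0.0106). Its paralogue Pcolce2 went the other way, with 4.95 and 4.82 against 6.72 and 7.87 (5.31-fold lower, limma adjusted p = 0.0324). The KSP-positive mean of Pcolce2, 4.88, lay under the filter level of 5.14, so it was tested only through the KSP-negative arrays. Loxl1, a lysyl oxidase family member that acts on elastin and collagen, had 10.01 and 10.08 against 8.67 and 7.48 (3.93-fold higher, limma adjusted p = 0.0324). Lox itself, 3.66-fold higher, had an adjusted p of 0.0508 in limma. Without KSP-negative replicate 2, Loxl1 and Pcolce2 were no longer called (adjusted p = 0.107 and 0.235, differences 1.38 and -1.83), while Pcolce was.

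Of the collagen receptors, 9 of 12 genes on the array were tested, and Antxr2, a cell surface protein that takes up collagen VI, was the 1 called, at 10.39 and 10.38 in the KSP-positive arrays against 8.87 and 8.86 (2.87-fold, limma adjusted p = 0.0343). The median of this list was 0.71. Of the other basement membrane proteins, 14 of 16 were tested and 2 were called higher, the laminin chains Lamb2, at 9.73 and 9.10 against 8.09 and 7.10 (limma adjusted p = 0.0452), and Lama2, at 8.66 and 8.74 against 7.42 and 5.84 (limma adjusted p = 0.0492). The median was 0.52, 9 of the 14 had a higher mean in the KSP-positive arrays (48.4% of all genes), and 0 genes of this list were called lower. The laminin chain Lama5, at 6.73 and 7.10 against 8.38 and 7.88, was 2.32-fold lower without being called (limma adjusted p = 0.129). Hspg2 was 1.53-fold lower, also with no overlap and not called (limma adjusted p = 0.405). Without KSP-negative replicate 2, the differences of Lamb2, Lama2 and P4ha2 were 1.33, 1.29 and 1.14 and these were not called (adjusted p = 0.160, 0.187 and 0.178). P3h3 and Antxr2 kept differences of 1.82 and 1.51 there, against 1.83 and 1.52 with all arrays, and were not called either (0.0513 and 0.0642). Antxr2 was also not called without KSP-positive replicate 1 (1.52, 0.0851) or 2 (1.52, 0.0588), and Lamb2 not without KSP-positive replicate 1 (1.50, 0.0990). Lama2, Lamb2 and P4ha2 were also not called with quantile normalization (limma adjusted p = 0.0605, 0.0605 and 0.0575), nor Antxr2 on values as deposited (0.146). With no intensity trend, Lama2, Lamb2, P4ha2 and Antxr2 were not called (limma adjusted p = 0.0810, 0.0800, 0.0963 and 0.0664). Over the 4 lists together, 7 of 54 tested genes were called higher (1.84% of all genes) and 1 lower (1.65%). The median was 0.80, against -0.03 over all genes.

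**Figure D4:**
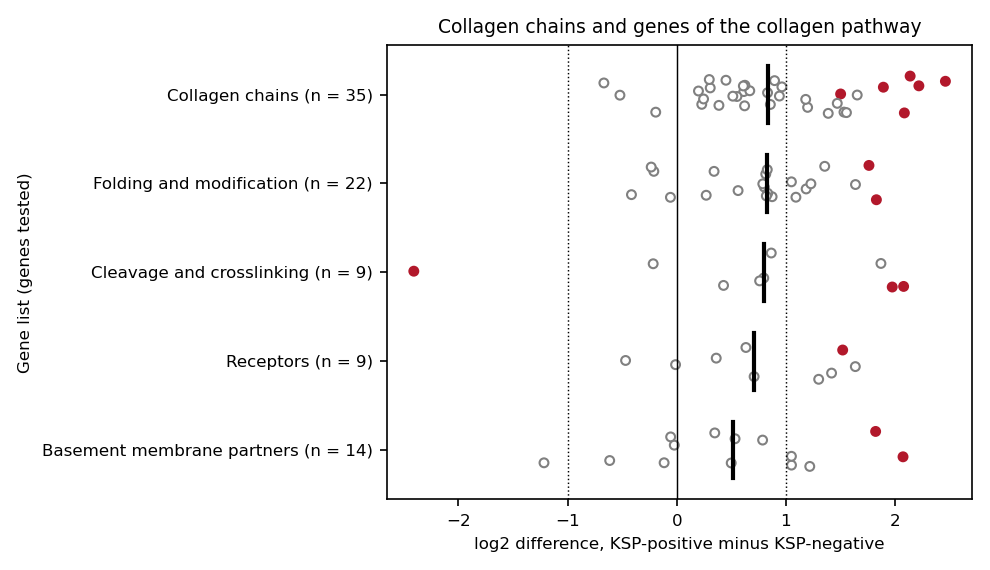
The plot gives the log2 difference of every tested gene (1 point each, vertical scatter for legibility) of the collagen chains and of the 4 lists of collagen-related genes, filled red where the adjusted p was under 0.05, with a thick bar for the list median and dotted lines at 2-fold. The medians run from 0.52 to 0.83, and Pcolce2 at -2.41 is the filled point on the left.

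Markers of several cell types differed between the fractions beside the collagens. These marker lists, too, were drawn up with earlier results of these data known, so their counts are description only. The shares over all genes tested were 1.84% called higher, 1.65% called lower and 7.92% more than 2-fold higher. Of 19 mesenchymal markers on the array that are not collagens, 18 were tested, 5 were called higher, 14 were more than 2-fold higher and 0 were called lower. The matrix proteoglycan gene Bgn had 11.78 and 12.02 in the KSP-positive arrays against 9.99 and 9.18, and Dcn, another proteoglycan that binds collagen fibrils, had 12.73 and 12.70 against 11.21 and 9.39. The summed scaled signal of this list was 60618 to 81996 in the KSP-positive and 24660 to 35797 in the KSP-negative arrays. Of 17 macrophage markers tested, 14 were called higher. The sum over all 19 on the array, tested or not, was 15389 to 32316 against 3181 to 3445. The complement gene C1qa, made by macrophages, was at the floor on both KSP-negative arrays. C1qc and Fcgr1, also among those called, had KSP-negative means of 4.34 and 3.90. All of these lay under the filter level of 5.14 there and were tested only through the KSP-positive arrays. Thus mesenchymal and macrophage markers both stood higher where the collagens did.

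Markers of pluripotent and epithelial cells moved the opposite way. Of 16 pluripotency genes tested, 14 were called lower, and their sum was 2552 to 3307 in the KSP-positive against 16007 to 31098 in the KSP-negative arrays. Nanog and Utf1 had KSP-positive means of 3.98 and 4.61, under the filter level of 5.14, and were tested only through the KSP-negative arrays. Of 17 epithelial markers tested, 9 were called lower, with sums of 9049 to 11818 against 26944 to 35724. Epcam, a surface protein of epithelial and ES cells, had 8.74 and 9.35 against 11.70 and 12.35. Of 15 endoderm markers tested, 4 were called lower (1.65% of all genes), and of 9 smooth muscle markers 1 was called higher (1.84% of all genes). Called in either direction were 0 of 13 endothelial and 0 of 7 tested cartilage and bone markers. Of the kidney epithelial list, 9 of 15 genes on the array were tested, 0 were called higher and 2 lower, and Umod and Slc12a3, which define the loop of Henle and the distal tubule, were at the floor on all 4 arrays. The part of the cell makeup of the fractions in the collagen differences was not tested.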

How the data were processed

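RNA of 2 KSP-positive and 2 KSP-negative fractions was labelled with biotin and hybridized, 1 array each. The values deposited by the authors are linear signal intensities from MAS5, as the submitters' processing notes name it, 1 per probe set and array. A factor per array brought all 75th percentiles to a signal of 281, a floor was set at the 20th percentile (signal 12.3), and log2 was taken. The filter kept probe sets whose mean exceeded a log2 of 5.14, the 40th percentile, and the brightest single-gene probe set stood for its gene. The mean was taken over all arrays, so a gene dim in 1 fraction could pass through the other. Of 27022 kept probe sets, 22618 are assigned to 1 gene each, and these gave the 12849 genes. Probe sets whose names end in x, s or a can match further transcripts.

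The fractions were compared on the log2 scale by limma 3.58.1, run in R 4.3.3, with moderated variances that follow intensity, two-sided, and with Benjamini-Hochberg adjustment over the genes tested. The step was tested on simulated data. No exact permutation of 2 against 2 arrays can give a p under 0.333, so none was used. As nothing states that replicates were separate cultures beyond the mention of independent experiments, p-values measure the spread between these arrays. Promoter windows are RefSeq's (GRCm38.p6). Figures were drawn with matplotlib 3.10.9.

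The members, the classes and the gene lists (collagen folding, cleavage and crosslinking, receptors, basement membrane partners, and markers of mesenchyme without collagens, macrophage, pluripotent, endoderm, endothelium, smooth muscle, cartilage and bone, epithelium and kidney epithelium cells) were chosen with earlier results of these data known. Array values were to be given for members called or over 2-fold and for chains of collagens I, III, IV, VI and XVIII, ranges for the others, and at most 4 genes per other list by smallest p. Col2a1, Col7a1, Col17a1, Lama5 and Hspg2 were named as exceptions to the direction, all after their values were seen. So were Lox, Serpinh1 and P4hb for their known roles, and Epcam, C1qa, Bgn and Dcn as examples. Alternatives were other scalings, floors, filters and probe set rules, other variance settings, the replicate block, the methods' t-test and each array left out.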

Additional observations from a re-analysis of the deposited data

How the results depend on the processing

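The number of collagens called lower was 0 in every setting run, and 13 were more than 2-fold higher under every scaling, floor and filter. The 2-fold set did depend on the arrays used. Without KSP-negative replicate 2, Col4a6, Col5a2, Col8a2 and Col16a1 were no longer more than 2-fold higher, while Col5a3 and Col27a1 were. Col1a1, Col6a1, Col6a2 and Col6a3 were called in all 13 settings other than the unfiltered fit, the methods' t-test and the test of single probe sets, Col14a1 in 11 and Col4a5 in 8. The test of single probe sets also called these 4 genes, but neither Col14a1 (adjusted p = 0.0518) nor Col4a5 (0.0807). With no filter, 0 collagens, 0 genes of the collagen-related lists, 0 genes higher and 0 lower were called by limma, the lowest adjusted p over 18193 genes being 0.201. There, an unadjusted p under 0.05 was reached by 11 collagens upward (6.51% of all genes) and by 0 downward (6% of all genes), and 1, Col17a1, was more than 2-fold lower. The methods' t-test, adjusted, also called 0 of each, and unadjusted it called 4 collagens, 666 genes higher and 570 lower.

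Leaving out 1 array at a time gave 4 to 11 collagens called higher against 6, 1 to 16 genes of the collagen-related lists against 8, 166 to 412 genes higher against 236 and 104 to 504 lower against 212. The fewest collagens came without KSP-negative replicate 2 and the most without KSP-negative replicate 1. The collagen-related lists gave 5 calls with probe sets averaged, 3 with no intensity trend and 2 with every probe set as its own feature, an alternative chosen after seeing the data, which also gave 146 genes higher and 139 lower. Values as deposited gave 352 genes lower. Col1a2 was called when its probe sets were averaged (difference 1.61, adjusted p = 0.0460).

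With the replicate number as a block, 10 collagens, 15 genes of the collagen-related lists, 571 genes higher and 560 lower were called. Deviations of arrays with the same number correlated at 0.166, with 2 pairs. No source ties numbers to experiments, so whether arrays with the same number came from the same experiment is not known.

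Signs changed for uncalled collagens only. Col9a3 was at -0.35 with probe sets averaged and ran from -0.017 to 0.51 with 1 array left out, Col11a2 from -0.57 to 0.19, Col18a1 from -0.12 to 0.52 and Col5a3 from -0.23 to 1.25. The causes were not tested. Dim probe sets limit what can be said of the 7 untested collagens.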
